A study of Caenorhabditis elegans with 6 samples.

Results

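The tRNAs encoded by the mitochondrial genome were examined in short RNA from whole *Caenorhabditis elegans*. All rows of the deposited table whose ID is MTCE. followed by digits alone were taken, and the WBcel235 annotation (Ensembl release 115) gives each of these 22 transcripts, of 2526 in the table, as a tRNA on MtDNA. The comparison was between 3 samples of worms given empty vector bacteria as food (vector control) and 3 samples given bacteria with an RNAi clone against *rpc-1*, which encodes the largest subunit of Pol III, the RNA polymerase that makes nuclear tRNAs. In both groups the worms were wild type (Bristol N2 is the study's wild-type strain), RNAi began at the L4 larval stage, and RNA was taken from washed pools of adults on day 2 of adulthood after growth with FuDR, which stops the production of progeny. RNAs under 200 nucleotides were selected and demethylated before sequencing. RNAi was given to whole animals by feeding, and the study describes the knockdown as partial. *rpc-1* itself has no row in this table of short transcripts, so the knockdown, and any difference in it between tissues, was not measured here.

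Mitochondrial tRNAs are not products of Pol III. They are copied by the mitochondrial RNA polymerase as parts of long transcripts that carry tRNAs, rRNAs and mRNAs in series, and the tRNAs are then cut out at both ends by mitochondrial RNase P and RNase Z. They read the mRNAs of the mitochondrial genome, which encode subunits of the respiratory chain and of ATP synthase, and in nematodes they are unusually short because most of them lack one arm of the standard cloverleaf. The sources used here give each of them by its gene ID and not by its amino acid or anticodon, so the IDs are used throughout.

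All 22 genes lie on the plus strand of MtDNA, and the transcripts are 52 to 62 bases long, against 64 to 115 bases for the 143 nuclear tRNAs in the table. Coordinates and lengths are those of the Ensembl models. RefSeq on the same assembly ends every mitochondrial tRNA except MTCE.1 slightly later, for example MTCE.5 at base 841. Along the coordinates of MtDNA the genes form 10 runs with mRNA or rRNA genes between them, and 4 of these runs hold a single tRNA. MTCE.1 (MtDNA, 1 to 55) and MTCE.2 (58 to 111) precede ND6, and MTCE.5 (785 to 840) and MTCE.6 (842 to 896) lie between ND4L and the rRNA gene MTCE.7. MTCE.8 (1595 to 1646), MTCE.9 (1648 to 1702) and MTCE.10 (1707 to 1761) lie between that rRNA gene and ND1. MTCE.13 to MTCE.15 (3244 to 3416) follow ATP6, MTCE.17 to MTCE.20 (4269 to 4502) lie between ND2 and CYTB, and MTCE.27 to MTCE.30 (9422 to 9647) lie between COX1 and COX2. MTCE.22 (5621 to 5676), MTCE.24 (6450 to 6504) and MTCE.32 (10348 to 10401) each stand between larger genes. MTCE.36 (13275 to 13327) follows ND5 and is the last gene, so on the circular genome the next gene after it is the tRNA gene MTCE.1. The Ensembl models of MTCE.15 and ND2 share 28 bases, those of MTCE.27 and COX1 share 7, and MTCE.17, MTCE.22 and MTCE.32 each share 1 base with the gene upstream, so reads from those bases can belong to either gene.

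Per sample, the table held a total of between 9362216 and 18464616 counts in vector controls and between 19386526 and 21685824 in *rpc-1* RNAi. The lowest count of any mitochondrial tRNA in any sample was 415, so counting error was small beside the spread between samples. The 2 samples numbered 1 stood apart from the other 4. Their share of counts on 5.8S rRNA was 9.13% in the control and 9.56% in RNAi, against 26.6% to 30.3% in the others, and their share on snoRNAs was 2.39% and 3.58%, against 5.12% to 7.44%. Some results are therefore also given without these samples. For single tRNAs, both were left out together only in the DESeq2 fit with the replicate number as a block. Nothing in the labels says whether samples of a group came from separate cultures, so p-values measure only the spread between these samples.

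The mitochondrial tRNAs differed widely in counts, and the order was nearly the same in every sample. Levels are normalized counts, which are estimated counts divided by the DESeq2 size factor of the sample, and levels of different tRNAs were compared per base of transcript. How well each tRNA was captured and read in these libraries was not measured. An order or fold between different tRNAs is therefore one of counts, and may not be that of the RNAs in the worm. In vector controls the most abundant, MTCE.1, was 1135-fold above the least abundant, MTCE.10, and in *rpc-1* RNAi the range was 774-fold. Spearman correlations of the 22 levels between samples, over all 15 pairs of samples, ran from 0.94 to 0.997. MTCE.1 was the highest in all 6 samples. The 5 most abundant tRNAs together took 68.9% to 76.9% of mitochondrial tRNA counts in controls and 66.6% to 71.6% in RNAi, and the same 5 led in both groups.

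**Figure D1:**
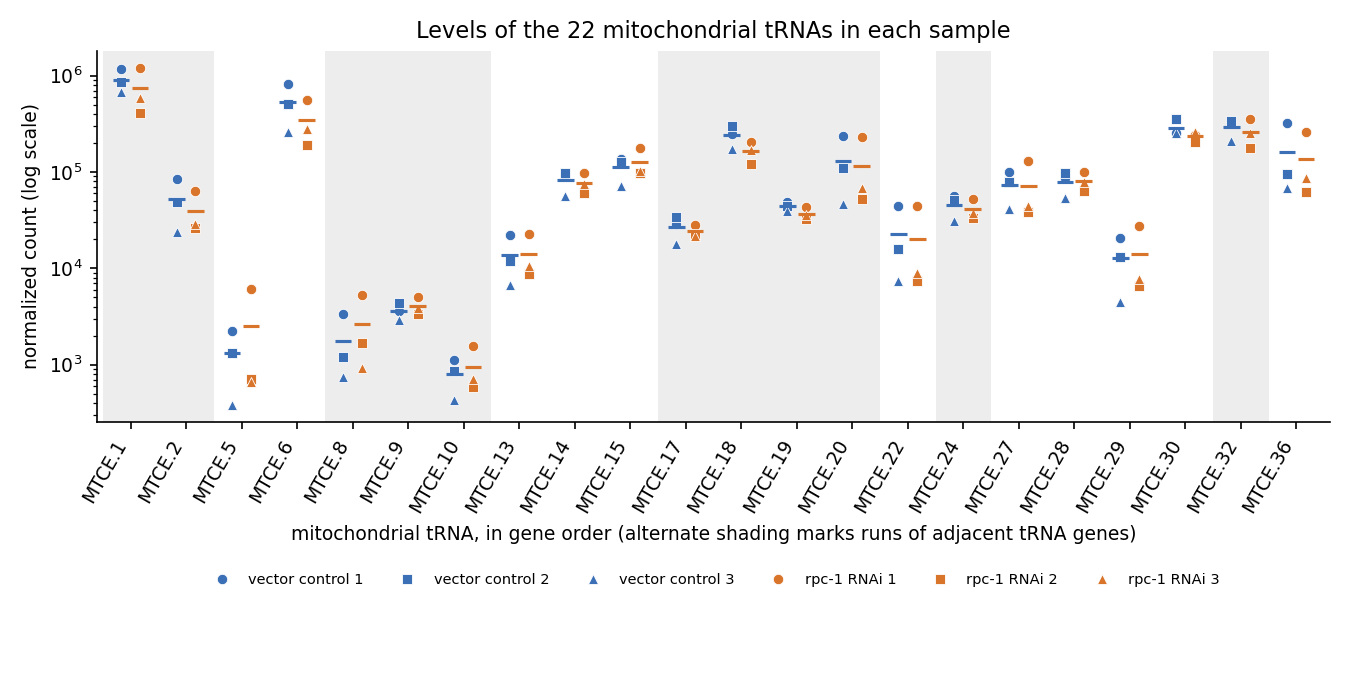
Normalized counts (log scale) of the 22 mitochondrial tRNAs in gene order, with 1 point per sample, shape for the replicate number, colour for the group and a bar at each group mean. MTCE.1 and MTCE.6 stand at the top and MTCE.5, MTCE.8, MTCE.9 and MTCE.10 at the bottom in both colours, and the points of the groups overlap for every tRNA.

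MTCE.1 had 1183639, 859459 and 681008 normalized counts in vector control replicates 1, 2 and 3, and 1211386, 408124 and 587566 in the RNAi replicates. MTCE.6 had 825226, 511699 and 259189 in controls and 559749, 191921 and 278834 in RNAi. MTCE.1 had a mean of 908035 ± 254812 in controls and 735692 ± 421620 in RNAi (SD, n = 3), and MTCE.6 had 532038 ± 283566 and 343501 ± 192252. For both tRNAs the highest value of each group was in replicate 1, and the groups overlapped. MTCE.32 had 340473, 336954 and 211321 in controls and 357942, 178610 and 251203 in RNAi. MTCE.30 had 252642, 350761 and 252574 in controls and 243630, 205763 and 257608 in RNAi. MTCE.18 had 247388, 301139 and 173807 in controls and 203141, 119862 and 170682 in RNAi. These 3 were less uneven across samples than MTCE.6, with the highest control 1.39-fold (MTCE.30) to 1.73-fold (MTCE.18) above the lowest, compared with 3.18-fold for MTCE.6.

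The least abundant were MTCE.10, MTCE.5 and MTCE.8. MTCE.10 had 1111, 858 and 430 normalized counts in vector control replicates 1, 2 and 3 and 1560, 585 and 707 in the RNAi replicates. MTCE.5 had 2250, 1317 and 381 in controls and 6170, 704.5 and 655 in RNAi. MTCE.8 had 3381, 1206 and 741 in controls and 5348, 1674 and 935 in RNAi. The same 3 were the lowest in 5 of the 6 samples, and RNAi replicate 1 held the highest value of each.

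The remaining 14 had mean control levels from 3634 (MTCE.9) to 161520 (MTCE.36) normalized counts. Between neighbours in the order per base, 9 of 21 steps had the same direction in all 6 samples, among them MTCE.1 over MTCE.6 and MTCE.6 over MTCE.32. The other 12, such as MTCE.32 over MTCE.30 and MTCE.36 over MTCE.20, turned in at least 1 sample, so those neighbours were not ordered beyond their spread. The ranges of the controls were apart at only 2 of the 21 steps, MTCE.19 over MTCE.17 and MTCE.13 over MTCE.9.

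Adjacent tRNA genes within a run often differed widely in level, though some pairs were close. Over the 12 pairs of adjacent tRNA genes within a run, the levels per base in controls differed by a median of 5.58-fold, against 6.36-fold over all 231 pairs of mitochondrial tRNAs. The largest step was between MTCE.5 and MTCE.6, which have 1 base between them in the Ensembl models and abut in RefSeq. MTCE.6 was 373-fold to 693-fold higher per base in the control samples and 92.4-fold to 433-fold higher in the RNAi samples. The smallest was between MTCE.27 and MTCE.28, at 1.01-fold in the means of the controls. The 3 tRNAs downstream of the rRNA gene MTCE.7 (MTCE.8, MTCE.9 and MTCE.10) were all among the 4 least abundant, while MTCE.6, immediately upstream of it, was the second most abundant. Length and level were weakly related across the 22 tRNAs (Spearman's rho -0.16, a description).

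In both groups replicate 1 held the highest level of most mitochondrial tRNAs, by far more for some than for others, while the order of replicates 2 and 3 differed between the groups. Replicate 1 was the highest RNAi sample for 21 of 22 tRNAs, MTCE.30 being the exception, and the highest control for 16. Vector control replicate 3 was the lowest control for all 22, and RNAi replicate 2 was the lowest RNAi sample for 19. MTCE.22 had 44462, 15813 and 7400 normalized counts in controls and 44568, 7415 and 9038 in RNAi. MTCE.36 had 321235, 94456 and 68868 in controls and 257581, 61791 and 86529 in RNAi. MTCE.19, by contrast, had 48939, 43923 and 39087 in controls and 43204, 32243 and 35614 in RNAi. For MTCE.22 and MTCE.36 replicate 1 was well above the others in both groups, while the controls of MTCE.19 lay within 1.25-fold of each other. These 3 were picked for this pattern after their values were seen.

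The excess of replicate 1, taken as the log2 ratio of replicate 1 to the geometric mean of replicates 2 and 3, ran from -0.24 (MTCE.30) to 2.04 (MTCE.22) in controls and from 0.08 (MTCE.30) to 3.18 (MTCE.5) in RNAi. It was over 1 in both groups for 9 tRNAs (MTCE.2, MTCE.5, MTCE.6, MTCE.8, MTCE.13, MTCE.20, MTCE.22, MTCE.29 and MTCE.36) and within 0.5 of 0 in both for 5 (MTCE.9, MTCE.17, MTCE.19, MTCE.28 and MTCE.30). The excess in the controls and that in RNAi, which come from different libraries, had a Pearson's r of 0.89 and a Spearman's rho of 0.93 across the 22 tRNAs, a description in which all points on an axis share 3 libraries. A different scaling shifts all points of an axis alike and leaves the differences between tRNAs as they are. The median excess of the mitochondrial tRNAs was 0.72 in controls and 1.22 in RNAi. It was 0.98 and 0.24 for 113 nuclear tRNAs, -1.38 and -0.92 for 149 snoRNAs, and 0.25 and 0.06 for all 817 transcripts whose normalized counts averaged 10 or more. The samples numbered 1 are also those with the lower 5.8S rRNA and snoRNA shares. The negative snoRNA excess and the lower snoRNA share describe the same libraries and are not separate observations. The part of these shares in the pattern was not tested.

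**Figure D2:**
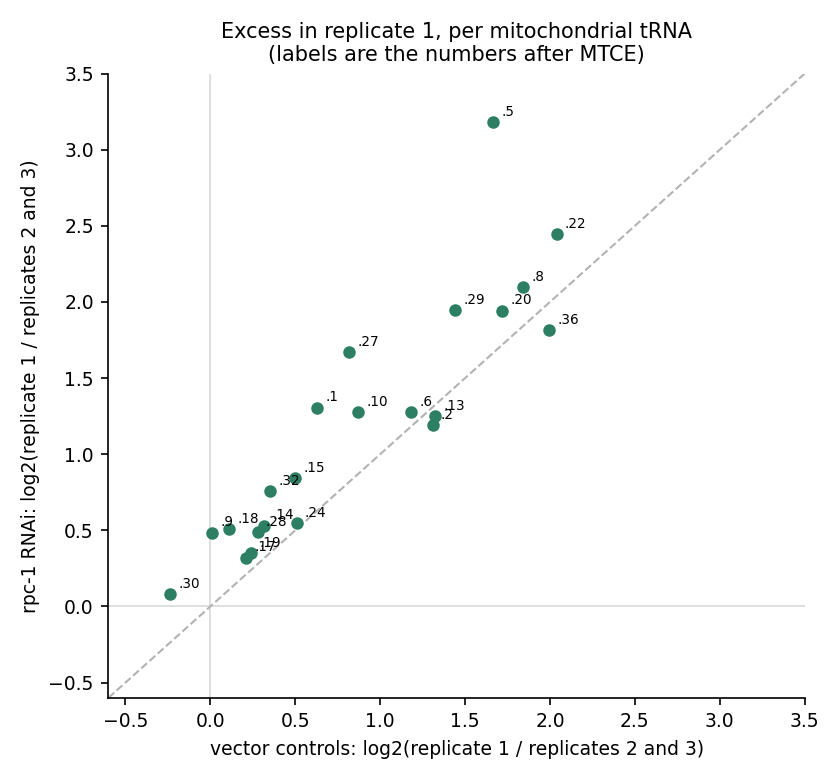
For each mitochondrial tRNA, the log2 ratio of replicate 1 to the geometric mean of replicates 2 and 3 in vector controls (x axis) and in *rpc-1* RNAi (y axis), with a dashed line where the 2 are equal. MTCE.30 lies near 0 on both axes, while MTCE.5, MTCE.8 and MTCE.22 lie highest.

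No mitochondrial tRNA was called as changed between *rpc-1* RNAi and vector controls in the comparison of all 3 samples against all 3. The DESeq2 Wald test, with p-values adjusted over all transcripts to a 10% false discovery rate (FDR), called 0 of the 22, while it called 7.29% of all 1083 transcripts with an adjusted p. At an unadjusted p under 0.05 the count was also 0. The quasi-likelihood test of edgeR called 0 of the 22, against 7.16% of the 796 transcripts it tested, and again 0 had an unadjusted p under 0.05. The lowest DESeq2 adjusted p was 0.975. Estimates were lower in RNAi for 14 tRNAs and higher for 8, with a median log2 fold change of -0.15, beside -0.08 over the 817 transcripts. The groups overlapped for all 22, while 11.3% and 10.3% of those 817 transcripts were higher or lower in RNAi without overlap. In the same fit 26 nuclear tRNAs were lower and 9 higher among 126 tested, 1 snoRNA was lower and 1 higher among 164, and 1 snRNA was higher and 0 lower among 61.

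The 95% intervals of the log2 fold changes were wide beside the estimates. MTCE.1 had a log2 fold change of -0.30 ± 0.71 (SE; interval -1.70 to 1.10), and MTCE.6 had -0.63 ± 0.77 (SE; -2.15 to 0.88). MTCE.18 had -0.55 ± 0.63 (SE; -1.79 to 0.69), MTCE.30 had -0.28 ± 0.59 (SE; -1.43 to 0.88) and MTCE.32 had -0.17 ± 0.65 (SE; -1.44 to 1.10). Estimates for the least abundant 3 were positive, at 0.93 ± 1.06 (SE; -1.15 to 3.01) for MTCE.5, 0.58 ± 0.93 (SE; -1.24 to 2.39) for MTCE.8 and 0.25 ± 0.75 (SE; -1.22 to 1.72) for MTCE.10. The other 14 lay between -0.41 and 0.18. All 22 intervals included 0.

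The number of lower estimates turned on single samples. With any single sample left out, MTCE.1, MTCE.6, MTCE.18 and MTCE.30 stayed lower in RNAi, while MTCE.32, MTCE.10, MTCE.5 and MTCE.8 changed sign in at least 1 such fit. Without vector control replicate 1 only 7 of 22 estimates were lower in RNAi, and without RNAi replicate 1 all 22 were lower, again with 0 calls in either fit. Without RNAi replicate 2 the number was 8, and with both samples numbered 1 left out and the replicate block it was 18. The scaling also moved the estimates: their median was 0.02 with total-count size factors and -0.56 with size factors from snoRNAs, while the median over the 817 transcripts moved alongside, to 0.10 and -0.47.

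Both groups number their samples 1 to 3, so the comparison was also made with the replicate number as a block, and this narrowed every interval. Same-numbered samples deviated together in pairs 1 and 3, and only weakly in pair 2. The block uses the same deviations, so the narrower intervals are no separate evidence for the pairing. The standard error fell for all 22 tRNAs, from a median of 0.73 to 0.35, and 1 of 22 was then past 10% FDR, higher in RNAi. In that fit 29.0% of all 959 transcripts with an adjusted p were past it, and 14.1% were past it and higher. The tRNA was MTCE.8, with RNAi over control ratios of 1.58, 1.39 and 1.26 in pairs 1, 2 and 3 and an estimate of 0.49 ± 0.21 on the log2 scale (SE; DESeq2 with the replicate block, adjusted p 0.0667, interval 0.09 to 0.90). It was the only mitochondrial tRNA higher in all 3 pairs (28.3% of the 817 transcripts were), and its 3 ratios stayed above 1 under all 5 scalings tried, with the lowest, 1.02, in pair 1. With the block, edgeR called 0 of 22, 0 with an unadjusted p under 0.05 (18.5% of its 796 transcripts were called), and gave MTCE.8 an adjusted p of 0.292. With any single pair left out, the DESeq2 adjusted p of MTCE.8 with the block was 0.157 to 0.562. MTCE.18 (ratios 0.82, 0.40 and 0.98) and MTCE.19 (0.88, 0.73 and 0.91) were lower in all 3 pairs, as were 25.1% of the 817 transcripts, but in pair 3 total-count size factors put MTCE.18 at 1.08 and left MTCE.19 no longer below 1. The other members changed direction between pairs: 13 of 22 were higher in RNAi in pair 1, 1 in pair 2 and 19 in pair 3, with median ratios of 1.02, 0.61 and 1.24.

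With the block the calls depended on which pairs were kept, in fits added after the data were seen. Each of these fits held only 2 pairs, which left little from which to estimate the spread. Without pair 2 there were 4 calls, all higher in RNAi, where 32.8% of 853 transcripts were called and 15.7% were called higher. They were MTCE.5 (log2 fold change 1.14), MTCE.10 (0.61), MTCE.15 (0.47) and MTCE.29 (0.62). Without pair 3 there was 1 call, MTCE.6 with a log2 fold change of -1.02, where 20.8% of 832 transcripts were called and 13.1% were called lower. Without pair 1 DESeq2 called 0 of 22 (24.5% of 832 transcripts were called), and MTCE.5 and MTCE.6 had estimates of -0.10 and -0.70.

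**Figure D3:**
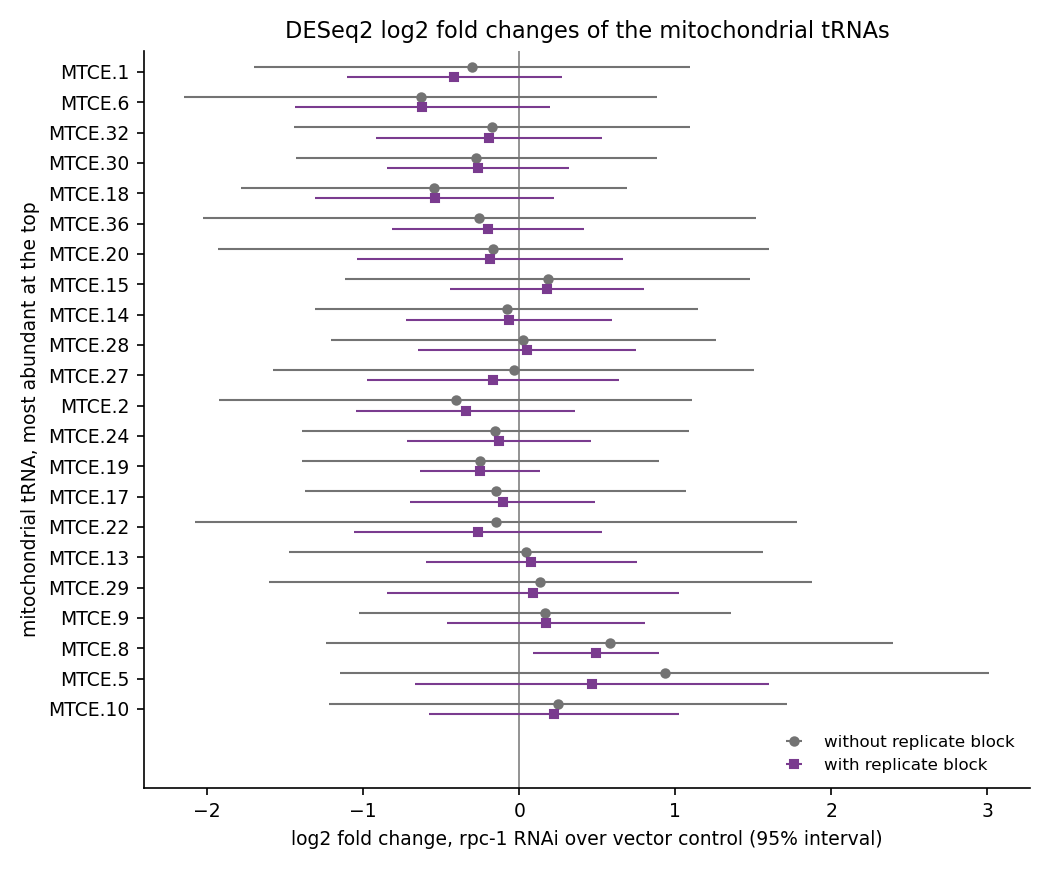
DESeq2 log2 fold changes of *rpc-1* RNAi over vector control with 95% intervals for the 22 mitochondrial tRNAs, ordered by control level with the most abundant at the top, without (circles) and with (squares) the replicate number as a block. All 22 intervals without the block and 21 of 22 with it cross 0, and MTCE.8 is the exception.

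The make-up of the mitochondrial tRNA pool was compared next, as each tRNA's share of the summed mitochondrial tRNA counts of its sample, which needs no size factor. MTCE.1 took 28.6%, 26.9% and 33.2% of the pool in controls and 31.3%, 25.2% and 27.2% in RNAi, with overlap. MTCE.6 took 19.9%, 16.0% and 12.6% in controls and 14.5%, 11.8% and 12.9% in RNAi, also with overlap. Shares of 2 tRNAs were higher in RNAi without overlap, where 10.4% of the 817 transcripts were by the same measure, and shares of 0 were lower without overlap (9.79%). MTCE.15 took 3.27%, 3.99% and 3.52% in controls and 4.64%, 5.99% and 4.77% in RNAi, so that its lowest RNAi value was above its highest control. MTCE.10 took 0.0269%, 0.0269% and 0.0210% in controls and 0.0403%, 0.0361% and 0.0328% in RNAi. In same-numbered pairs the share of 10 tRNAs was higher in RNAi in all 3 pairs, against 35.4% of the 817 transcripts. These were MTCE.5, MTCE.8, MTCE.9, MTCE.10, MTCE.13, MTCE.14, MTCE.15, MTCE.17, MTCE.28 and MTCE.32. MTCE.18 alone was lower in all 3 pairs (15.4% of the 817). Shares of a pool are not independent, since a fall in MTCE.6 raises the shares of the rest, and no test was made of them.

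Summed over the 22 tRNAs, the counts were 23.7%, 17.1% and 12.1% of all short transcript counts in vector control replicates 1, 2 and 3, and 23.3%, 10.7% and 14.0% in the RNAi replicates. Wilson 95% intervals of these shares cover counting error only, and the widest was 17.04% to 17.09%. The RNAi mean was below the control mean, with a difference of -1.64 percentage points, less than the spread between replicates (exact two-sided permutation p 0.70, smallest possible 0.10). With rRNA and 7SL RNA left out of the total the shares were 38.5%, 45.6% and 33.7% in controls and 45.8%, 32.3% and 38.8% in RNAi, so that pair 1 as well as pair 3 was higher in RNAi, and the difference between the means was -0.30 percentage points. The sum of normalized counts was 4137323, 3189688 and 2052032 in controls and 3869775, 1622616 and 2159140 in RNAi. RNAi over control was 0.935 in pair 1, 0.509 in pair 2 and 1.05 in pair 3, with a mean log2 difference of -0.33 ± 0.56 (SD over 3 pairs; exact two-sided sign-flip p 0.50, smallest possible 0.25). Pair 2 carried most of that difference, and without RNAi replicate 2 it was -0.06. With both samples numbered 1 left out it was -0.45. Neither the share nor the sum separated the groups. In whole worms, RNA per mitochondrion, the number of mitochondria and the share of cells rich in them all enter these sums and cannot be told apart.

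The ratio of mitochondrial to nuclear tRNA counts was higher in every RNAi sample than in any control. Mitochondrial tRNA counts were 2.40, 12.7 and 3.36 times the nuclear tRNA counts in vector control replicates 1, 2 and 3, and 20.9, 21.6 and 39.8 times in the RNAi replicates, with no overlap. The ratio was 8.69-fold, 1.70-fold and 11.9-fold higher in RNAi in pairs 1, 2 and 3. The mean log2 difference was 2.48 (exact two-sided permutation p 0.10, the smallest possible, and 0.30 after Benjamini-Hochberg adjustment over the 3 summed measures), and 2.17 without the samples numbered 1. Summed normalized counts of nuclear tRNAs in RNAi were 0.108, 0.299 and 0.0886 of the control in pairs 1, 2 and 3, beside 0.935, 0.509 and 1.05 for mitochondrial tRNAs. With the counts of ncRNAs antisense to nuclear tRNA genes added to the nuclear side, the log2 difference was 0.22 and the groups overlapped (exact permutation p 0.60), so the separation of the groups held only for counts assigned to the nuclear tRNAs themselves.

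**Figure D4:**
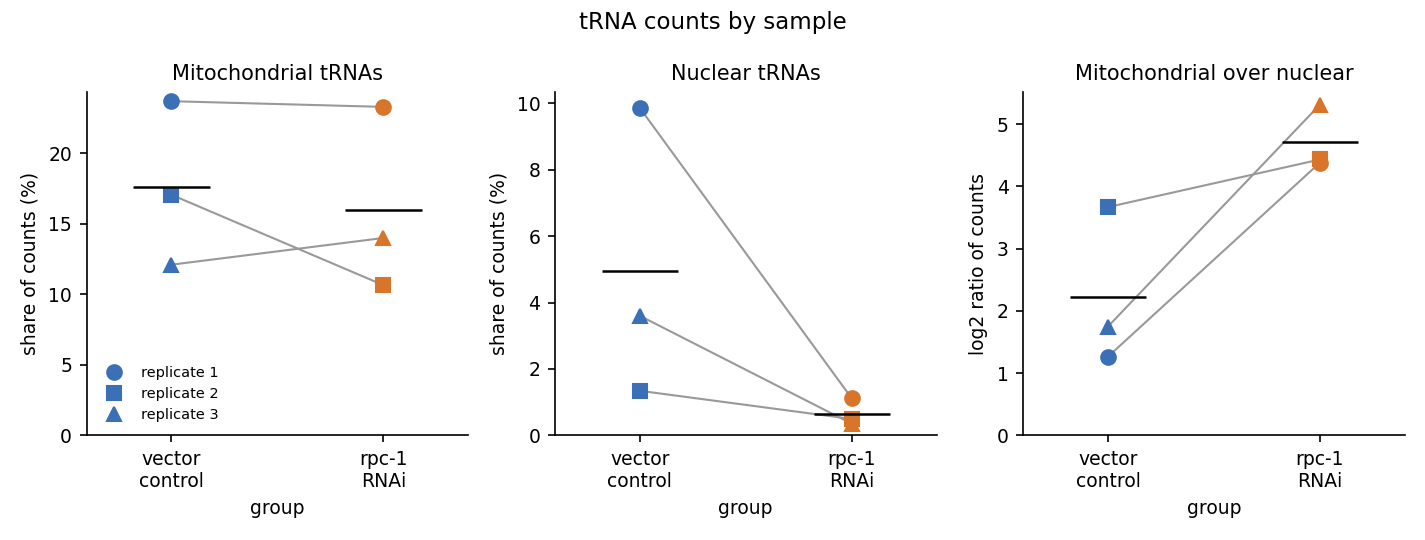
Share of all counts on mitochondrial tRNAs (left), share on nuclear tRNAs (middle) and log2 ratio of mitochondrial to nuclear tRNA counts (right) in each sample, with same-numbered samples joined and a black bar at each group mean. The mitochondrial shares overlap between the groups, the nuclear shares are at most 1.12% in RNAi and at least 1.34% in controls, and the ratio is higher in RNAi in all 3 pairs.

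One other mitochondrial transcript was short enough to be in the table, the mRNA MTCE.4.1 (MtDNA, 549 to 783), which RefSeq on the same assembly names ND4L, a subunit of respiratory complex I. In the Ensembl models 1 base lies between it and MTCE.5 downstream. Vector controls 1, 2 and 3 gave 31, 43 and 63 counts of it, and the RNAi samples gave 56, 215 and 124. After scaling it was 1.61-fold, 1.91-fold and 1.52-fold higher in RNAi in pairs 1, 2 and 3, an estimate of 0.80 ± 0.81 on the log2 scale (SE) that was not past 10% FDR (adjusted p 0.942 in DESeq2, and 0.216 with the replicate block). Its level per base in controls was 0.246 normalized counts, against 14.5 for the least abundant mitochondrial tRNA, MTCE.10. It is longer than the size limit of 200 nucleotides, so its level cannot be set against those of the tRNAs in the worm.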

How the data were processed

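Per the labels and the methods of the study, reads were checked with FastQC, trimmed with Cutadapt and assigned to WBcel235 RNAs with Salmon against a decoy-aware index, and short transcripts were taken over with tximport. The deposited values are estimated counts per transcript, all whole numbers, so rounding changed none. Salmon divides reads between similar transcripts, and whether strand was used is not given in the sources used here. Reads of nuclear copies of mitochondrial DNA, if any, were not separated. Of the 2526 transcripts, 2506 matched the annotation. No sequence of these tRNAs was used here.

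The members and lists were chosen with earlier results of these data known. Every mitochondrial tRNA is accounted for, and full values are given for the 5 most and 3 least abundant in controls and for those past 10% FDR without or with the block. DESeq2 1.42.0 in R 4.3.3 was fitted to all transcripts with median-of-ratios size factors and group as the only term, and Benjamini-Hochberg adjusted p under 0.10 was called. Replicate numbers come from the sample titles. They were taken as pairs because both groups use the numbers 1 to 3, and the titles do not say that same-numbered samples belong together. Deviations from group means correlated at 0.55, 0.20 and 0.40 in the same-numbered pairs over 817 transcripts. Between differently numbered samples the correlations ran from -0.41 to 0.14, the highest for control 3 with RNAi 2. edgeR 4.0.16, other size factors and filters, 5% FDR and leaving out samples were alternatives. Both tools were tested on simulated counts. Summed measures were compared by exact permutation of the 20 labelings or by sign flips of the 3 pairs. Summaries used Python 3.11.15, pandas 2.3.3 and SciPy 1.17.1.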

Additional observations from a re-analysis of the deposited data

How the results depend on the processing

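The 0 calls among the 22 mitochondrial tRNAs stayed at 0 with edgeR, with edgeR and the replicate block, with total-count size factors, with size factors without tRNAs or from snoRNAs, with either filter and at 5% FDR. DESeq2 with the replicate block gave 1. When 1 sample was left out, or 1 pair with the block (added after seeing the data), calls ran from 0 to 4. The number of lower estimates, 14, was 10 with total-count size factors and 20 with size factors from snoRNAs, and ran from 5 to 22 when samples were left out. Among the 8 tRNAs given in full, 122 alternative estimates kept their direction and side of the threshold, 10 changed sign and 4 passed the threshold. MTCE.10 turned to -0.16 with size factors from snoRNAs. With single samples left out, estimates ran from -0.48 to 0.027 for MTCE.32, from -0.32 to 0.55 for MTCE.10, from -0.96 to 1.56 for MTCE.5 and from -0.45 to 1.44 for MTCE.8. With a pair left out of the fit with the block, MTCE.32 was 0.17 and MTCE.30 was 0.0010 without pair 2, MTCE.10 was -0.066 without pair 3 and MTCE.5 was -0.10 without pair 1. The block with all samples changed the call of MTCE.8 and of no other mitochondrial tRNA.

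The difference in the mitochondrial tRNA share, -1.64 percentage points, was -0.30 with rRNA and 7SL RNA left out of the total and ran from -5.30 to 1.401 when samples were left out. The log2 ratio of summed counts, -0.33, was -0.16 with total-count size factors and -0.67 with size factors from snoRNAs. That of mitochondrial to nuclear tRNAs ran from 2.003 to 3.20 when samples were left out, and was 0.22 with antisense ncRNAs on the nuclear side. With the replicate block the 3 summed measures kept their values, with sign-flip p of 0.75, 0.50 and 0.25. No sign-flip test of 3 pairs can pass 0.05, so it says nothing about stability. The causes were not tested.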
